A study of Homo sapiens with 12 samples.

Results

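The 10 genes described here encode the enzymes that make serine and pass its carbon through folate: PHGDH, PSAT1, PSPH, SHMT1, SHMT2, MTHFD1, MTHFD1L, MTHFD2, ALDH1L1 and ALDH1L2. They were picked by gene symbol, and all 10 were present among the 16389 genes of the count table. RNA-seq had been performed on HepG2 cells, an established human liver cancer line, in 4 groups of 3 libraries. LG cells were kept for 48 h in medium with 5.5 mM glucose and HG cells in medium with 20 mM glucose. LGV and HGV cells had the same media and then 1 mM valproic acid (VPA), an inhibitor of histone deacetylases, for another 12 h. The study asked how high glucose changes hepatic gene expression and how VPA acts on it. All libraries come from a single transformed line without the other cells of the liver. Neither the labels nor the methods say whether the 3 libraries of a group came from separate cultures, so the p-values measure only the spread between these libraries. The harvest time of the untreated cells relative to those 12 h is not stated either, so VPA and time in culture cannot be told apart.

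Serine synthesis branches from glycolysis: PHGDH oxidises a phosphoglycerate, PSAT1 moves an amino group onto the product from glutamate, and PSPH removes the phosphate. A hydroxymethyltransferase, SHMT1 in the cytosol or SHMT2 in mitochondria, then splits serine into glycine and a carbon unit that is carried by tetrahydrofolate. In mitochondria MTHFD2 oxidises this unit and MTHFD1L releases it as formate, while in the cytosol MTHFD1 takes formate up again for purine, thymidylate and methyl group synthesis. ALDH1L1 in the cytosol and ALDH1L2 in mitochondria oxidise formyl-tetrahydrofolate to carbon dioxide and yield NADPH. In most tissues the mitochondrial branch makes formate and the cytosolic branch uses it. Several of these genes are known targets of ATF4, the transcription factor of the amino acid response, and of MYC.

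Promoter windows, from 250 bases before to 50 after a transcription start, were given by RefSeq on GRCh38.p14 for 7 of the 10 genes in 11 windows. PSPH, SHMT2 and ALDH1L2 had none and were not searched, and MTHFD1L had 4, the most of any member. The windows were searched on both strands for GATGCAA, the core of the element that ATF4 binds with a C/EBP partner, and for CACGTG, the E-box of MYC. The search found GATGCAA in MTHFD1L and in no other of these 7 genes, and CACGTG in MTHFD1L and MTHFD1. Over all RefSeq genes with such a window, 2.99% held GATGCAA and 8.77% held CACGTG. These shares take no account of how many windows a gene has. The matching sites in MTHFD1L and MTHFD1 are printed, and their part in the levels of either gene was not tested. They are written 5′ to 3′ on the plus strand with the motif in capitals and 11 bases on either side.
MTHFD1L, chr6:150866321-150866348, E-box: acgcccggctcCACGTGcgcagccggcc
MTHFD1L, chr6:150866347-150866375, C/EBP-ATF core: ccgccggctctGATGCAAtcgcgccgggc
MTHFD1, chr14:64388327-64388354, E-box: cagtccctaagCACGTGggttgggttgt
MTHFD1L has several annotated starts close together. Relative to the starts at 150866486, 150866447 and 150866333 its E-box began at position -154, -115 and -1, and GATGCAA at -128, -89 and 26. Its remaining window gave no printed site. In MTHFD1 the E-box began at -15. A match describes the letters and does not show that a factor was bound.

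Between 29798442 and 45572694 reads were counted on genes in each library, and counts were scaled to a common library size (CPM) with edgeR's TMM factors, which ran from 0.879 to 1.095. A floor of 3 reads corresponded to at most 0.112 CPM, which covers counting error only, and the lowest value of any of the 10 genes was 10.9 CPM. All 9 hepatocyte markers examined, among them ALB, AFP and HNF4A, were present in the 4 groups, and their summed level was 52000 to 58700 CPM in LG, 52990 to 60870 in HG, 40050 to 40970 in LGV and 46990 to 61620 in HGV. Of 8 markers of other cell types, PTPRC, CD68, PECAM1 and COL1A2 were not in the table. The other 4 (VWF, COL1A1, ACTA2 and KRT19) summed to between 103 and 137 CPM without VPA and between 132 and 242 CPM with it, mostly through KRT19, and the part of either list in the VPA results was not tested. In RNA from whole cultures, fewer cells of a kind and less RNA per cell cannot be told apart. For each comparison, edgeR's quasi-likelihood F test was run over every gene whose mean count in the libraries compared reached 10, and a gene was called at an adjusted p (FDR) of 0.05 or less.

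Together the 10 genes took 0.284% to 0.304% of the reads in LG and 0.28% to 0.311% in HG, against 0.194% to 0.204% in LGV and 0.208% to 0.257% in HGV. Each library with VPA was below each without. PHGDH, PSAT1, SHMT2 and MTHFD2 held between 80% and 84.1% of these reads. To compare genes with each other, levels were divided by the length of the MANE Select transcript in kilobases. On this per-kilobase scale SHMT2 led in LG with 381 ± 41.9 CPM per kb (SD, n = 3), followed by PHGDH with 320 ± 54.7 and PSAT1 with 290 ± 37.8, and neighbours among these 3 overlapped. MTHFD2 came next with 131 ± 17.8, then PSPH, MTHFD1L, MTHFD1, ALDH1L1, SHMT1 and ALDH1L2, the last with 2.68 ± 0.215 CPM per kb (SD, n = 3). From PSAT1 down, no library of a gene in this LG order overlapped those of the next gene. In HGV the order had changed. PSAT1 led with 336 ± 58.3 CPM per kb (SD, n = 3), apart from PHGDH with 234 ± 27.6, and SHMT2 stood at 124 ± 11.9. MTHFD1 at 26.8 ± 1.69 was above MTHFD1L at 15.6 ± 1.67 CPM per kb (SD, n = 3), the reverse of their order in LG. These orders depend on the length chosen. With the union of all annotated exons in its place, PSAT1 led in LG with 290 CPM per kb, before SHMT2 with 179 and PHGDH with 64.9, and it led in HGV too. On that length MTHFD1L stayed above MTHFD1, with 44.2 against 6.03 CPM per kb in LG and 11.01 against 4.88 in HGV.

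**Figure D1:**
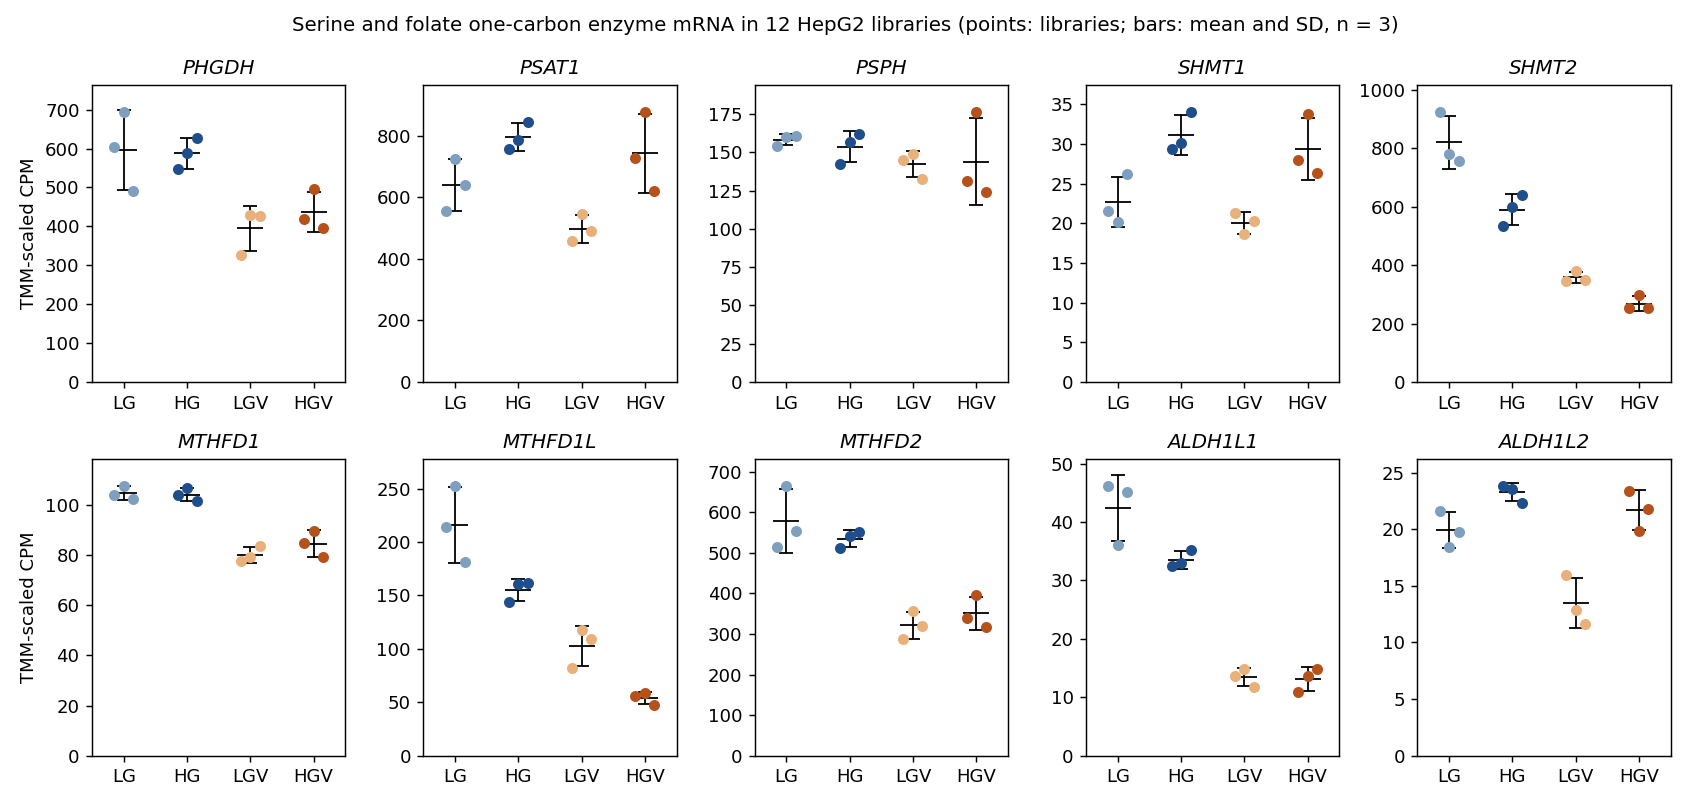
TMM-scaled CPM (vertical axes, linear from 0) of the 10 genes in each library of LG, HG, LGV and HGV; points are libraries, horizontal bars the mean and whiskers the SD (n = 3). SHMT2, MTHFD1, MTHFD1L, MTHFD2 and ALDH1L1 are lower in every library with VPA than in any without. PSPH overlaps between most groups, and SHMT1 separates by glucose in both treatments.

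With VPA, expression of the mitochondrial enzymes SHMT2, MTHFD1L and MTHFD2 and of the cytosolic ALDH1L1 fell in both media. PHGDH and MTHFD1 also fell in both, with smaller estimates, and the sizes of the falls were not compared by a test. PSAT1 and the mitochondrial ALDH1L2 passed the test in LG medium only, and PSPH and SHMT1 in neither medium. Of the 10 genes, 6 were called between HGV and HG and 8 between LGV and LG, all of them lower with VPA. Over all genes tested, 46.1% were called between HGV and HG, 25.8% higher and 20.2% lower, and 41.6% between LGV and LG, 21.7% higher and 19.9% lower. The median log2 fold change of the 10 genes was -0.36 in HGV against HG and -0.57 in LGV against LG, beside medians of 0.02 and -0.01 over all genes tested. The libraries did not overlap for 6 of the 10 genes in HG medium and 9 of 10 in LG medium, always lower with VPA. Over all genes tested, 54.6% and 50.5% did not overlap, and 24.5% and 24.8% were lower without overlap. Scaling by library size alone moved the median of all genes to 0.15 and 0.16, and under it 5 members, not 8, were called between LGV and LG. The calls of SHMT2, MTHFD1L, MTHFD2, ALDH1L1 and PHGDH held in both media under each alternative fit, including each that left out a library.

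**Figure D2:**
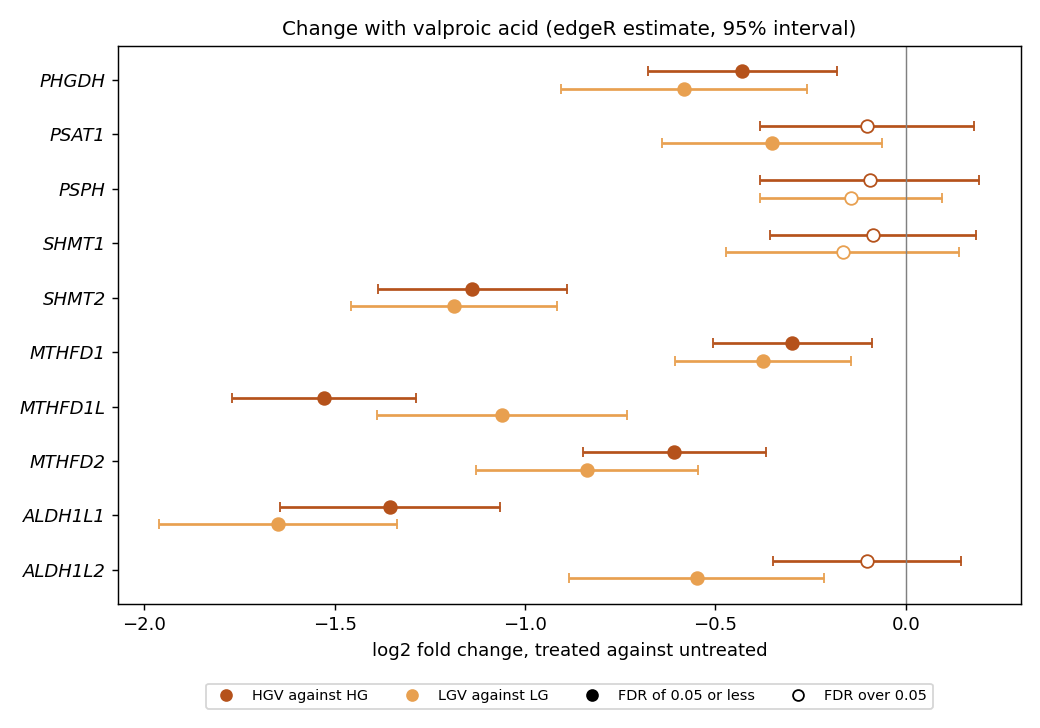
log2 fold change of the 10 genes with VPA (horizontal axis) in HG medium (dark) and LG medium (light), with 95% intervals from the edgeR fit (3 libraries against 3); filled points have an FDR of 0.05 or less. MTHFD1L has the lowest estimate in HG medium, -1.53, and ALDH1L1 the lowest in LG medium, -1.65.

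SHMT2 and MTHFD1L were lower and SHMT1 was higher in high than in low glucose, without VPA and also with it. Between HG and LG, 3 of the 10 genes were called, 1 higher and 2 lower, where 24.7% of all genes tested were called, 12% higher and 12.7% lower. The libraries of HG and LG did not overlap for 6 of the 10 genes, 3 higher and 3 lower in HG, against 41.2% of all genes, 19.3% higher and 21.8% lower. Between HGV and LGV, 5 of the 10 were called, 3 higher and 2 lower, where 40.7% of all genes were, 21.2% higher and 19.5% lower. The same 5 were the members whose HGV and LGV libraries did not overlap, against 51.4% of all genes, 27.7% higher and 23.7% lower. PSAT1 and ALDH1L2 were the others called higher under VPA. The median log2 fold change of the 10 genes was -0.01 between HG and LG and 0.09 between HGV and LGV, each beside 0.01 over all genes tested. The calls between HG and LG were close to the threshold. Without LG replicate 1 none of the 10 genes was called, and the count over all genes dropped from 3813 to 1933. Without HG replicate 1 or without HG replicate 3 a single member was called, and the count over all genes was 2076 in the latter case. No called value of a member changed sign under any alternative.

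**Figure D3:**
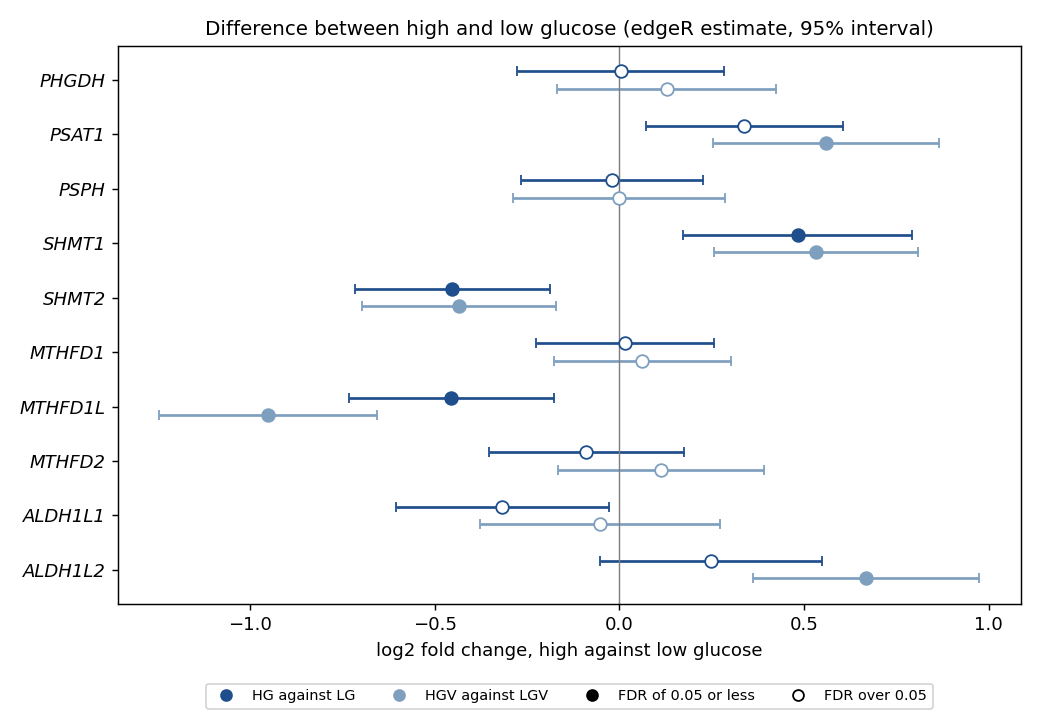
log2 fold change of the 10 genes between high and low glucose (horizontal axis) without VPA (dark) and with VPA (light), with 95% intervals from the edgeR fit (3 libraries against 3); filled points have an FDR of 0.05 or less. SHMT1, SHMT2 and MTHFD1L are filled in both comparisons, and PSAT1 and ALDH1L2 with VPA only.

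PHGDH (ENSG00000092621, chromosome 1 of GRCh37 from 120191034 to 120286841), the entry enzyme of serine synthesis, had 605, 694 and 490.5 CPM in LG and 549, 588 and 628 CPM in HG. With VPA it had 327, 430 and 426 CPM in LGV and 419, 495 and 396 CPM in HGV. Each treated library was below the untreated libraries of the same medium, while HG lay within the range of LG. PHGDH fell with VPA by 0.43 log2 units in HG medium (standard error, SE, 0.11, FDR 0.00817) and by 0.58 in LG medium (SE 0.15, FDR 0.00626). Between HG and LG its log2 fold change was 0.00 (95% interval -0.28 to 0.28, FDR 0.989).

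PSAT1 (ENSG00000135069, chromosome 9 from 80912041 to 80945009), the transaminase, had 556, 723 and 639 CPM in LG and 757, 786 and 846 CPM in HG. It had 456, 546 and 490 CPM in LGV and 729, 877 and 621 CPM in HGV. All HG libraries were above all LG libraries, but the log2 fold change of 0.34 (SE 0.13) had an FDR of 0.058 and did not pass. Without LG replicate 2 it passed, with an FDR of 0.0194, as it did without LG replicate 3 (FDR 0.0441), and the FDR was 0.0125 with library size alone and 0.0423 with no filter on low counts. Under VPA the glucose difference passed: PSAT1 was higher in HGV than in LGV by 0.56 log2 units (SE 0.15, FDR 0.00538). With VPA, PSAT1 fell in LG medium by 0.35 (SE 0.13, FDR 0.0487), a call lost with library size alone (FDR 0.168), with DESeq2's size factors (FDR 0.0523), with the filter of at least 1 CPM in 3 libraries (FDR 0.05 after rounding), and without LG replicate 2, LG replicate 3, LGV replicate 1 or LGV replicate 3 (FDR up to 0.168). In HG medium HGV and HG overlapped, with a log2 fold change of -0.10 (95% interval -0.38 to 0.18, FDR 0.551).

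PSPH (ENSG00000146733, chromosome 7 from 56078744 to 56119297), the phosphatase of the last step, moved least. It had 155 to 161 CPM in LG, 142 to 162 CPM in HG, 133 to 149 CPM in LGV and 124 to 177 CPM in HGV. The highest group mean was 1.11-fold the lowest, and the groups overlapped except LGV and LG. Its log2 fold change was -0.09 in HGV against HG (95% interval -0.38 to 0.19) and -0.14 in LGV against LG (95% interval -0.38 to 0.09), which does not show that its level was unchanged. HGV replicate 2, with 177 CPM, stood above the other two HGV libraries with 132 and 124 CPM. Without it the log2 fold change against HG was -0.26, with an FDR of 0.0437.

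HGV replicate 2 had the highest value of its group in 8 of the 10 genes, and HGV replicate 3 the lowest in 8. HG replicate 3 was the highest of its group in 8 genes and HG replicate 1 the lowest in 8. In HG and HGV, libraries thus differed in the same direction for most of these genes. LGV replicate 2 was the highest of its group in 7 genes and LGV replicate 1 the lowest in 6. In LG no replicate was the highest in more than 5 genes or the lowest in more than 4. How libraries ranked over all genes was not examined. The GENCODE annotation names 14 pseudogenes of PSAT1, PSPH, SHMT1, MTHFD1 and MTHFD2, of which 0 were in the table, so counts of these 5 genes may lack or hold reads of near-identical copies. The coefficient of variation within a group ran from 2.18% (PSPH in LG) to 19.7% (PSPH in HGV).

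SHMT2 (ENSG00000182199, chromosome 12 from 57623356 to 57628718), the mitochondrial hydroxymethyltransferase, had 925, 782 and 758 CPM in LG and 533, 599 and 640 CPM in HG. With VPA it had 345, 380 and 348 CPM in LGV and 254, 298 and 253 CPM in HGV. The 4 groups did not overlap at any step of the order LG, HG, LGV, HGV, and the mean of LG was 3.06-fold that of HGV. With VPA, SHMT2 fell by 1.14 log2 units in HG medium (SE 0.11, FDR 5.69e-06) and by 1.19 in LG medium (SE 0.13, FDR 4.36e-06). Between HG and LG it fell by 0.45 (SE 0.13, FDR 0.0139), and between HGV and LGV by 0.43 (SE 0.13, FDR 0.0104). Without LG replicate 1, the highest LG library, the log2 fold change between HG and LG was -0.34 with an FDR of 0.0977, and without HG replicate 1 it was -0.37 with an FDR of 0.0734. The call between HGV and LGV was lost without HGV replicate 3 (FDR 0.0518).

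SHMT1 (ENSG00000176974, chromosome 17 from 18231174 to 18266877), its cytosolic counterpart, went the other way with glucose. It had 21.5, 20.2 and 26.2 CPM in LG and 29.4, 30.1 and 34.0 CPM in HG, and 21.3, 18.6 and 20.2 CPM in LGV against 27.9, 33.8 and 26.3 CPM in HGV. The high glucose libraries were above the low glucose libraries in both treatments. SHMT1 rose by 0.48 log2 units between LG and HG (SE 0.15, FDR 0.024) and by 0.53 between LGV and HGV (SE 0.13, FDR 0.00375). The first call was lost when LG replicate 1, LG replicate 2, HG replicate 2 or HG replicate 3 was left out (FDR up to 0.112), and the second held under each alternative. VPA gave log2 fold changes of -0.09 in HG medium (95% interval -0.36 to 0.18) and -0.17 in LG medium (95% interval -0.47 to 0.14), neither called. Exons of SHMT1 share 197 bases with those of SMCR8 on the other strand, and the strand setting of the counting is not stated. SMCR8 had up to 216% as many reads as SHMT1. It was itself lower in HG than in LG, with a log2 fold change of -0.95.

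MTHFD1L (ENSG00000120254, chromosome 6 from 151186815 to 151423023), the mitochondrial synthetase that releases formate, had the widest range. It had 214, 253 and 182 CPM in LG, 144, 161 and 161 CPM in HG, 81.8, 118 and 109 CPM in LGV and 55.9, 58.3 and 47.4 CPM in HGV. As for SHMT2, no step of the order LG, HG, LGV, HGV overlapped, and the mean of LG was 4.02-fold that of HGV. MTHFD1L fell with VPA by 1.53 log2 units in HG medium (SE 0.11, FDR 4.14e-07) and by 1.06 in LG medium (SE 0.15, FDR 6.97e-05). It fell with glucose by 0.95 under VPA (SE 0.14, FDR 5.38e-05) and by 0.46 without VPA (SE 0.13, FDR 0.018). The latter call was lost without LG replicate 1, LG replicate 2, HG replicate 1 or HG replicate 3 (FDR up to 0.0991). Its log2 fold change was -0.30 without LG replicate 2, the highest LG library.

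MTHFD2 (ENSG00000065911, chromosome 2 from 74413299 to 74444692), the mitochondrial dehydrogenase and cyclohydrolase, had 514, 666 and 555 CPM in LG and 512, 542 and 551 CPM in HG. It had 289, 356 and 318 CPM in LGV and 340.5, 396 and 317 CPM in HGV. Treated libraries were below all untreated libraries, while the glucose groups overlapped in both treatments. MTHFD2 fell with VPA by 0.61 log2 units in HG medium (SE 0.11, FDR 0.00066) and by 0.84 in LG medium (SE 0.14, FDR 0.000187). Between HG and LG its log2 fold change was -0.09 (95% interval -0.35 to 0.17) and between HGV and LGV 0.11 (95% interval -0.17 to 0.39).

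MTHFD1 (ENSG00000100714, chromosome 14 from 64854749 to 64930175), the cytosolic enzyme with all of these activities, changed little. It had 102 to 108 CPM in LG and 102 to 107 CPM in HG, and 77.5 to 83.6 CPM in LGV and 79.1 to 89.8 CPM in HGV. Treated libraries again lay below all untreated ones, and the glucose groups overlapped. MTHFD1 fell with VPA by 0.30 log2 units in HG medium (SE 0.10, FDR 0.0224) and by 0.37 in LG medium (SE 0.11, FDR 0.0122). Both calls were lost with library size alone, with FDRs of 0.13 and 0.0941. The call in HG medium was also lost without HG replicate 2, HG replicate 3, HGV replicate 1 or HGV replicate 3 (FDR up to 0.0869). Exons of MTHFD1 share 1556 bases with CTD-2555O16.4 and 178 with ZBTB25 on the other strand. These had at most 0.928% and 15.2% as many reads. ZBTB25 was itself called higher in HGV than in HG, with a log2 fold change of 0.48, and in HG than in LG, with 0.69.

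ALDH1L1 (ENSG00000144908, chromosome 3 from 125822405 to 125916837), the cytosolic dehydrogenase and a gene typical of liver, had 46.2, 35.98 and 45.2 CPM in LG and 32.4, 32.9 and 35.2 CPM in HG. With VPA it had 13.7, 14.8 and 11.8 CPM in LGV and 10.9, 13.6 and 14.9 CPM in HGV. Every treated library was far below every untreated one, and LGV and HGV overlapped. ALDH1L1 fell with VPA by 1.36 log2 units in HG medium (SE 0.13, FDR 4.7e-06) and by 1.65 in LG medium (SE 0.15, FDR 7.83e-07), to 0.391-fold and 0.319-fold of the untreated level. All HG libraries were below all LG libraries, but the log2 fold change of -0.32 had an FDR of 0.0999 and did not pass. Without LG replicate 2 it passed, with an FDR of 0.0416. Exons of ALDH1L1 share 233 bases with ALDH1L1-AS2 on the other strand, which had at most 15.8% as many reads.

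ALDH1L2 (ENSG00000136010, chromosome 12 from 105413562 to 105501421), the mitochondrial form, had 21.6, 18.4 and 19.7 CPM in LG and 23.8, 23.6 and 22.3 CPM in HG. It had 15.95, 12.9 and 11.6 CPM in LGV and 23.4, 19.9 and 21.8 CPM in HGV. The LGV libraries were below those of every other group. ALDH1L2 fell with VPA in LG medium by 0.55 log2 units (SE 0.16, FDR 0.0111), a call lost with library size alone (FDR 0.109), without LG replicate 1 (FDR 0.0516) and without LGV replicate 3 (FDR 0.0919). In HG medium the log2 fold change was -0.10 (95% interval -0.35 to 0.14, FDR 0.494). It was higher in HGV than in LGV by 0.67 (SE 0.15, FDR 0.0015). Its exons share 145 and 131 bases with C12orf45 and KIAA1033 on the other strand, and neither of these was called in any comparison of 2 groups. C12orf45 had up to 54.9% and KIAA1033 up to 159% as many reads as ALDH1L2.

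The response to VPA was compared between the media by an interaction term fitted to all 12 libraries. With edgeR none of the 10 genes was called, and 7 of 16389 genes (0.0427%) were. The unadjusted p was under 0.05 for 2 members. For MTHFD1L the log2 fold change with VPA differed between HG and LG medium by -0.45 (95% interval -0.87 to -0.04, unadjusted p = 0.0351, FDR 0.394). For ALDH1L2 the difference was 0.46 (95% interval 0.06 to 0.87, unadjusted p = 0.0276, FDR 0.368). For SHMT2 the difference was 0.06 (95% interval -0.29 to 0.41). A member called in one medium and not in the other, such as PSAT1 and ALDH1L2, is therefore not shown to respond differently. No member was called under any alternative fit of the interaction, although DESeq2's Wald test called 162 genes and the fit without LG replicate 2 called 217. HG libraries enter both HG against LG and HGV against HG, and LG libraries both HG against LG and LGV against LG, so the values of these comparisons are not independent.

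The read counts of a mitochondrial and a cytosolic isozyme in the same library were also set against each other as a log2 ratio, which needs no scaling between libraries and was not tested. SHMT2 to SHMT1 stood at 5.18 ± 0.294 (SD, n = 3) in LG, 4.24 ± 0.0685 in HG, 4.16 ± 0.172 in LGV and 3.20 ± 0.0616 in HGV. HGV was below all other groups, and LG above them. As geometric means these are 36.4 reads of SHMT2 per read of SHMT1 in LG and 9.17 in HGV. MTHFD1L to MTHFD1 went from 1.03 ± 0.203 in LG and 0.57 ± 0.102 in HG to 0.34 ± 0.249 in LGV and -0.66 ± 0.0743 in HGV (SD, n = 3). Only in HGV were there fewer reads of MTHFD1L than of MTHFD1, in 3 of 3 libraries. MTHFD2 to MTHFD1 followed VPA and not glucose, with 2.46 ± 0.161 in LG, 2.36 ± 0.0713 in HG, 2.00 ± 0.148 in LGV and 2.05 ± 0.0808 in HGV (SD, n = 3). ALDH1L2 to ALDH1L1 moved upwards, from -1.09 ± 0.113 in LG and -0.53 ± 0.113 in HG to 0.00 ± 0.212 in LGV and 0.74 ± 0.322 in HGV (SD, n = 3). The range of no group overlapped that of the next in this order.

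**Figure D4:**
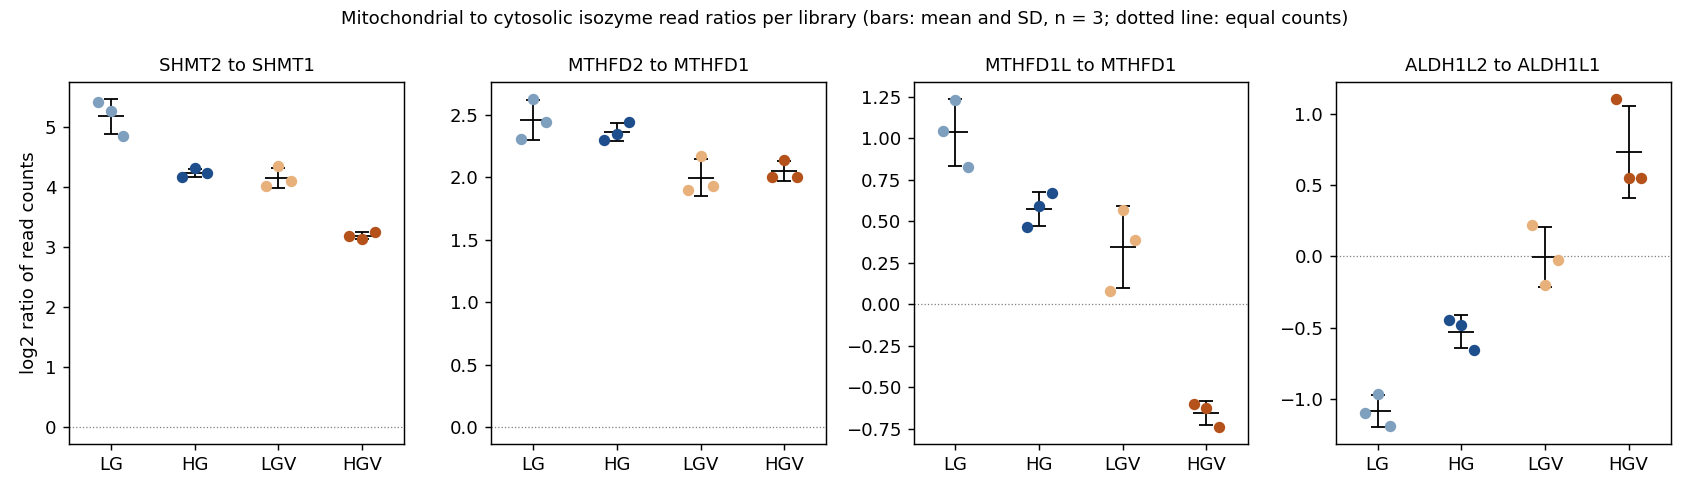
log2 ratio of read counts (vertical axes) of a mitochondrial to a cytosolic isozyme in each library of LG, HG, LGV and HGV; points are libraries, bars the mean and SD (n = 3), and the dotted line marks equal counts. SHMT2 to SHMT1 and MTHFD1L to MTHFD1 are lowest in HGV, and ALDH1L2 to ALDH1L1 is highest there.

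Genes around these enzymes were described in 5 lists of pathway neighbours. Their counts stand beside 46.1% of all genes called between HGV and HG (25.8% higher, 20.2% lower), 41.6% between LGV and LG (21.7% higher, 19.9% lower) and 24.7% between HG and LG (12% higher, 12.7% lower), and their medians beside 0.02, -0.01 and 0.01 over all genes. Nothing particular to a list is read from them. Of 6 genes of de novo purine synthesis, which takes formyl groups from folate, 4 fell with VPA in HG medium and 4 in LG medium, and none rose. ATIC fell by 0.69 and 0.82, ADSL by 0.66 and 0.87 and PFAS by 0.80 and 1.12 on the log2 scale. GART was not called, with log2 fold changes of -0.07 and -0.04. The list medians were -0.47 in HG medium and -0.57 in LG medium.

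Of 14 folate cycle and transport genes in the table, 5 fell and 2 rose with VPA in HG medium, and 7 fell and none rose in LG medium. TYMS, thymidylate synthase, fell by 1.47 in HG medium and by 1.09 in LG medium on the log2 scale, and MTHFS by 1.68 and 1.46. SLC19A1, the reduced folate carrier, fell by 0.37 in HG medium and by 0.40 in LG medium. The list medians were -0.08 and -0.44. GGH, which shortens the glutamate tail of folates, rose by 0.93 in HG medium. SLC25A32, the mitochondrial folate carrier, and MTHFD2L, a relative of MTHFD2 with 9.26 CPM in LG, were not called in any comparison. Between HG and LG, 3 of these 14 genes rose and 1 fell. FTCD, which feeds carbon from histidine into folate, rose by 0.90, and GGH fell by 0.89.

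Of 15 genes of glycine cleavage and of serine and glycine use, 5 fell and 3 rose with VPA in HG medium, and 5 fell in LG medium. GLDC, the decarboxylase of the glycine cleavage system, rose in HG medium by 0.93, from 53.7 to 103 CPM, and AMT of the same system fell by 0.55. SARDH fell by 0.80 in HG medium and 1.45 in LG medium, and PIPOX by 0.86 and 0.62, both enzymes that oxidise sarcosine. The list medians were -0.12 and -0.33. Without VPA, 3 of these 15 genes were called higher in HG than in LG and 2 lower. DMGDH rose by 0.96, AMT by 0.90 and GLYCTK by 0.68. SLC1A4 and SLC1A5, carriers of serine and other neutral amino acids, fell by 0.85 and 0.38. SFXN1, the mitochondrial serine carrier, was not called in any comparison.

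Of 13 genes of the methionine cycle and transsulfuration, 6 fell with VPA in each medium, and 2 rose in HG and 1 in LG medium. MAT2A, which makes the methyl donor S-adenosylmethionine, fell by 0.66 and 0.72, and CTH, which makes cysteine, by 1.09 and 1.41. MTR, methionine synthase, fell by 0.47 in HG medium and by 1.15 in LG medium. The list medians were -0.24 and -0.47. BHMT, which remethylates homocysteine with betaine, rose by 3.85 in HG medium and 3.49 in LG medium, from 1.08 to 15.6 and from 0.849 to 9.27 CPM. Between HG and LG, 4 of these genes rose, among them CTH by 0.74, MAT1A by 0.55 and MTR by 0.52, and ADI1 fell by 1.35.

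Of 12 genes of the amino acid response and its regulators, 5 fell and 2 rose with VPA in HG medium, and 5 fell and 1 rose in LG medium. ATF4 had 869 CPM in LG, 646 in HG, 638 in LGV and 461 in HGV on average. It fell by 0.40 with glucose without VPA, and with VPA by 0.49 in HG medium and 0.43 in LG medium. MYC fell with VPA by 0.39 and 0.46 and was not called with glucose. ATF5 fell by 2.26 and 1.59 with VPA and by 0.87 with glucose, and TRIB3 by 1.04, 0.52 and 0.81 in the same comparisons. Not all genes of this list moved alike. ASNS, asparagine synthetase, was higher in HGV than in LGV by 0.97, and CHAC1 was higher in HG than in LG by 1.11 and in HGV than in LGV by 2.13. The list medians with VPA were -0.19 and -0.43. With edgeR no gene of the 5 lists was called in the interaction, and DESeq2's Wald test called 1, FPGS, with a difference of 0.76 (adjusted p = 0.0459).

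**Figure D5:**
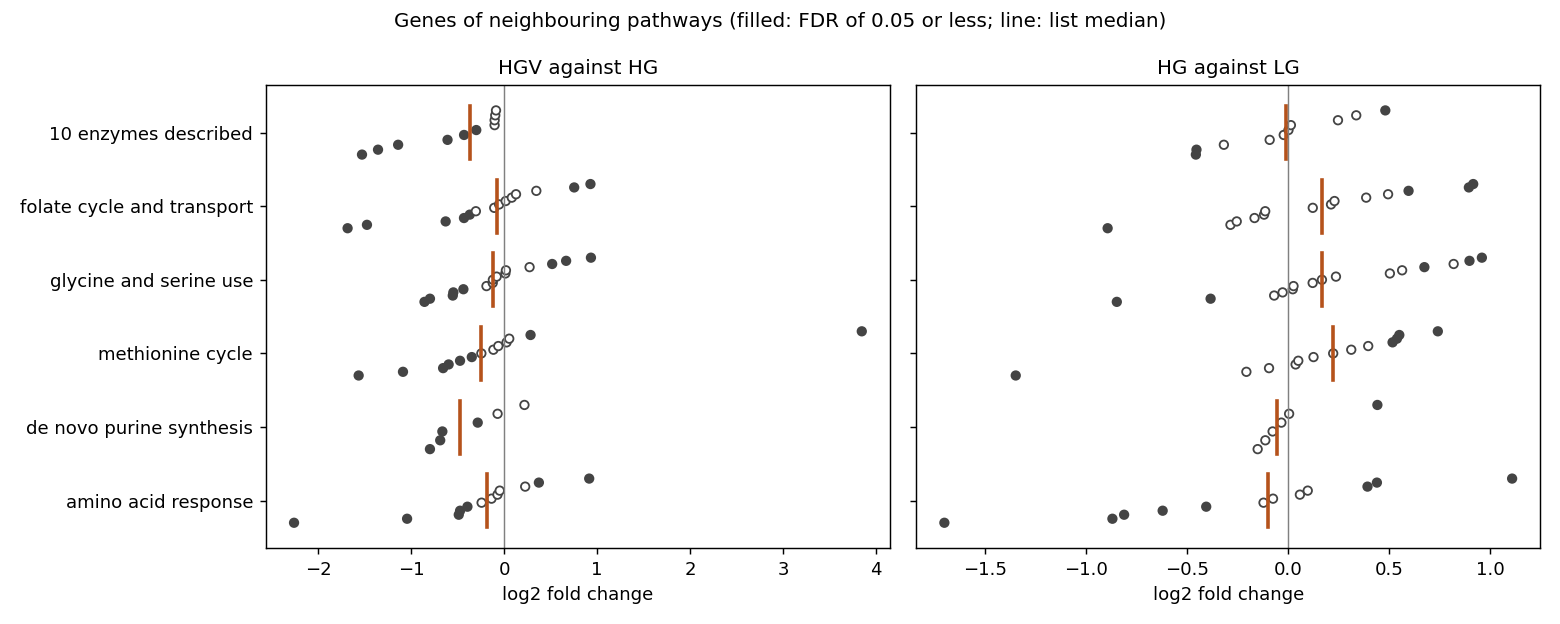
log2 fold change (horizontal axes) of each gene of the 10 enzymes and of the 5 neighbouring lists, for HGV against HG and for HG against LG; each point is a gene, filled points have an FDR of 0.05 or less, the orange bar is the list's median and the grey line is 0. All 10 enzymes lie below 0 in HGV against HG with TMM scaling. Of these, PSAT1, PSPH, SHMT1 and ALDH1L2 are not called there and lie slightly above 0 with library size alone. The far point at 3.85 is BHMT.

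The genes most like each called member were sought among 13457 others with a mean of at least 1 CPM. PSPH was not called in any comparison, so none were sought for it. Likeness was the root mean square (RMS) difference of log2(CPM + 1) over the 12 libraries, after subtraction of each gene's own mean. Among the members themselves, PHGDH and MTHFD2 were closest (RMS difference 0.151), followed by PSPH and MTHFD1 (0.153) and PHGDH and MTHFD1 (0.16). SHMT2 was closest to MTHFD1L (0.239) and ALDH1L1 (0.242), and PSAT1 to SHMT1 (0.17). Outside the list, SFXN4 (0.0783) and ACOT2 (0.0811) were nearest to SHMT2, CDK2AP1 (0.11) and SLC22A3 (0.149) to MTHFD1L, and TEF (0.131) and ALDH16A1 (0.149) to ALDH1L1. ALDH18A1, an enzyme of proline synthesis, was nearest to MTHFD2 (0.0873) and XRCC6 second (0.0961). For PHGDH these were ZNRF1 (0.08) and UBE2Z (0.0876), for PSAT1 TUBA1C (0.108) and CTNND1 (0.114), for SHMT1 TSEN15 (0.0599) and RPA2 (0.0752), for MTHFD1 PDCD11 (0.0659) and PIP4K2B (0.0703), and for ALDH1L2 C2orf68 (0.0862) and PRR26 (0.0995). The members' own movement about their mean was an RMS of 0.758 for MTHFD1L and 0.632 for SHMT2 but 0.178 for MTHFD1, so a small distance from MTHFD1 says little. The distances describe these libraries only.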

How the data were processed

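The authors sequenced poly(A)-selected RNA from a directional kit, trimmed the reads at low-quality 3′ bases and aligned them to GRCh37 (STAR), then counted reads above a mapping quality threshold over Ensembl genes (featureCounts). They deposited raw counts for 16389 genes in 12 libraries, without normalization. Genes averaging under 10 reads had been left out, and 0 such genes were in the table. The strand setting of the counting is not given in the sources used here. No sequencing batch is named.

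Counts were tested in R 4.3.3 with edgeR 4.0.16 (TMM factors, quasi-likelihood F test, Benjamini-Hochberg adjustment over all genes tested), with the libraries of each comparison, or all 12 for the interaction. Genes needed a mean count of at least 10. Intervals are at 95%. DESeq2 1.42.0, other scalings, filters, thresholds, the replicate block and leaving out each library were alternatives. The edgeR step was checked on simulated data. Positions and lengths came from GENCODE on GRCh37. Plots used matplotlib 3.10.9.

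The genes, the lists and the tests were chosen with earlier results of these data known. Named were all 10 members, up to 6 genes of each list per comparison (the smallest p, or direct neighbours of a member), and the 2 genes most like each called member. Some results of listed genes are not reported here.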

Additional observations from a re-analysis of the deposited data

How the results depend on the processing

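Over all genes, the count of calls between HG and LG went from 3813 to 1852 at an FDR of 0.01, and that between HGV and LGV from 6604 to 4263. Of the 10 genes, 0 were called between HG and LG and 5 between LGV and LG at that threshold, and 5 between LGV and LG with library size alone. For the interaction, 7 genes were called, against 1 with library size alone, 162 with DESeq2's Wald test, 13 with the replicate block and 1 at an FDR of 0.01. Leaving out a replicate gave 1933 to 5338 calls and 0 to 4 members for HG against LG, 6083 to 7793 calls and 5 to 7 members for HGV against HG, 4942 to 6986 calls and 6 to 8 members for LGV against LG, and 4516 to 7228 calls and 4 to 5 members for HGV against LGV. For the interaction it gave 1 to 217 calls, the most without LG replicate 2, and 0 members. The replicate numbers were not taken to pair the samples, since the labels tie them to no shared culture or day. In no comparison did every same-numbered pair of libraries have deviations from the group means that correlated by over 0.1 across genes. That cannot exclude a pairing. Deviations from a group mean sum to 0, so the values for different numbers largely follow from those for the same number. The correlations for HG against LG ran from -0.255 to 0.00457 (mean -0.135, against 0.0706 for different numbers), between HGV and HG from -0.221 to 0.312 (0.107 against -0.0627), between LGV and LG from -0.229 to 0.382 (0.052 against -0.0267) and between HGV and LGV from 6.5e-05 to 0.253 (0.104 against -0.0518). With the replicate block, 3351, 8229, 6971 and 7308 genes were called in the comparisons in the same order, and no member's call changed. With library size alone, 62.6% of the calls between HG and LG were higher in HG (48.6% with TMM), 68.1% between HGV and HG (56.1%) and 69.7% between LGV and LG (52.1%). The cause of these differences was not tested. Of 750 values of members under an alternative, 35 had another sign than the reported value, none of them of a called value. The lowest count of a member in a library was 354 reads, and counting error is part of the spread of the members with low counts.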
